A study of Homo sapiens with 108 samples.

Results

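Deoxynucleotide synthesis enzymes were taken here as 8 genes chosen by name: RRM1, RRM2, TYMS, TK1, DUT, CTPS1, DCK and SAMHD1. They are 8 of 19775 genes that had a probe set of their own, and the array's annotation gave them 20 probe sets. All 8 were bright enough to be tested in each of the 4 cell lines, with a log2 intensity of at least 4 on at least 3 arrays of the line. The choice used the gene symbols and no measured value. Changes below are differences of group means on the log2 scale ± SE, each group holding 3 arrays, and "rose" and "fell" are used only of a gene with an adjusted p below 0.05 in limma, adjusted over every gene tested.

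A cell that copies its genome must first make the deoxynucleotides (dNTPs). Ribonucleotide reductase, built from the large subunit RRM1 and the small subunit RRM2, reduces ribonucleotides to deoxyribonucleotides. TYMS methylates dUMP to dTMP, DUT breaks down dUTP and so supplies dUMP while keeping uracil out of DNA, TK1 and DCK phosphorylate salvaged thymidine and deoxycytidine, CTPS1 makes CTP from UTP, and SAMHD1 works the other way by breaking dNTPs down. Several of these genes, RRM2, TYMS and TK1 among them, are known to be expressed mainly around S phase, and fast-dividing lymphoma cells use them heavily.

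The study treated 4 human lymphoma cell lines with DMSO, the solvent control, or with EPZ6438, also named tazemetostat, an inhibitor of the histone methyltransferase EZH2. WSU-DLCL2, SU-DHL6 and Karpas422 carry an EZH2 mutation at Y641, and Pfeiffer does not carry a Y641 mutation. Pfeiffer is not taken here as a line with unmutated EZH2. Each line received DMSO, EPZ6438 at the dose labelled LCC or EPZ6438 at 10xLCC for 2, 4 or 6 days, which gave 36 groups of 3 arrays each (replicates A, B and C). LCC was set for each line separately, the sources used here do not state its concentration, and doses are therefore not matched between lines. Each line stands for 1 tumour. The labels do not say whether replicates were separate cultures, so p-values measure the spread between these samples, which may be technical. The values are averages over all cells of a culture: less RNA per cell and fewer cells in a phase that expresses a gene cannot be told apart.

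The 5 B cell markers measured had medians of at least 8 (log2) in all 4 lines, and none of 5 myeloid markers did. Among T cell and stromal or epithelial markers, CD247 had a median of 11.46 in Pfeiffer and 10.71 in Karpas422, CD3G had 8.74 in Karpas422, EPCAM had 11.84 in Pfeiffer, DCN had 13.74 in Karpas422 and 9.38 in WSU-DLCL2, and COL1A1 was above 8 in every line. The ratio of the 3' to the 5' probe sets of beta-actin, a sign of RNA integrity, lay between -0.20 and 0.41 (log2) on the 72 arrays of days 2 and 4. At day 6 it reached 0.44 in SU-DHL6 and ran from 1.02 to 3.56 in Karpas422, while WSU-DLCL2 stayed between -0.21 and -0.04 and Pfeiffer between -0.15 and 0.02. The array of Pfeiffer, LCC, day 6, replicate B was the one farthest from the others of its group, at a root mean square distance of 0.71 (log2). It is 1 of 4 arrays that an earlier analysis of these data singled out and that were left out together in 1 alternative, with SU-DHL6, DMSO, day 2, replicate A (0.47), Karpas422, LCC, day 6, replicate C (0.36) and WSU-DLCL2, 10xLCC, day 6, replicate B (0.31). These are not the 4 largest distances: among the arrays kept, Pfeiffer, LCC, day 6, replicate A stood at 0.40, Pfeiffer, DMSO, day 2, replicate A at 0.37 and Karpas422, 10xLCC, day 4, replicate C at 0.37. Beside the counts at day 6 in SU-DHL6 and Karpas422, values with the beta-actin ratio as a covariate are given.

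**Figure D1:**
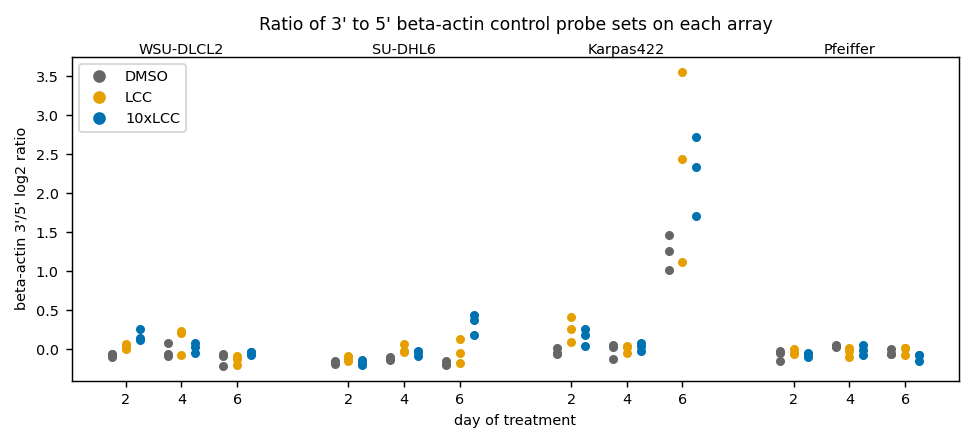
Log2 of the 3'/5' signal ratio of the beta-actin control probe sets on each array (y axis), by line, day of treatment (x axis) and dose (colour); each point is 1 array. All 9 Karpas422 arrays of day 6 lie above 1, with the treated arrays reaching 3.56, and the SU-DHL6 10xLCC arrays of day 6 lie above the DMSO arrays of that day.

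The DNA before the start sites of these genes is shown because 5 of them moved together in the results that follow. RefSeq promoters of GRCh38.p14 matched all 8 genes, with 14 windows in all because RRM2, TK1, DUT and CTPS1 have more than 1 listed start. In the 250 bases before each start, both strands were searched for 4 E2F-type sequences (TTTCCCGC, TTTGGCGC, TTTCGCGC and TTTGCCGC), for CCAAT, the core bound by NF-Y, and for TTTGAA, the CHR element of cell cycle genes; none of these letters contains another. The windows below are the one before the single start of RRM1, TYMS and SAMHD1 and the upstream one of RRM2, with matches in capitals.
RRM1, chr11:4094435-4094684, + strand: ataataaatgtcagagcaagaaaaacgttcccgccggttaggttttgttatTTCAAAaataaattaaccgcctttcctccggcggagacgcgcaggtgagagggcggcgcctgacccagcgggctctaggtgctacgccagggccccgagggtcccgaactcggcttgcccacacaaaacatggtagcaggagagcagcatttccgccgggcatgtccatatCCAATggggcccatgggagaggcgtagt
RRM2, chr2:10122318-10122567, + strand: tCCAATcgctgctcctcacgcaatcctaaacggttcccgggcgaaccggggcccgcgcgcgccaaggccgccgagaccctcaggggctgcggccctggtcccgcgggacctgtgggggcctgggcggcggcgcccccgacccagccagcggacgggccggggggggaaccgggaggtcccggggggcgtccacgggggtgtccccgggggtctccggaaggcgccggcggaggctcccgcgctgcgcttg
TYMS, chr18:657403-657652, + strand: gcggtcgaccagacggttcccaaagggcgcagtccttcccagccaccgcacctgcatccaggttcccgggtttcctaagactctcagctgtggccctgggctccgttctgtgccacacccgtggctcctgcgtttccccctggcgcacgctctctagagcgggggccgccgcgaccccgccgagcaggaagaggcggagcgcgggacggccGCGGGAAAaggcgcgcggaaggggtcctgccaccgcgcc
SAMHD1, chr20:36951709-36951958, - strand: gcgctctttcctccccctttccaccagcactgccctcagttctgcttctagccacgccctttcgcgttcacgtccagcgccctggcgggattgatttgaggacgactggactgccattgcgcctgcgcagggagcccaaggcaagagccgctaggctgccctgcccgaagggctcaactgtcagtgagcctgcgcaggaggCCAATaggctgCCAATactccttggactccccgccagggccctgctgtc
An E2F-type sequence was found in 2 of the 14 windows, before TYMS and DUT, against 2.79% of all 35116 windows of this length. CCAAT was found in 5 of the 14, before RRM1, RRM2, TK1 and SAMHD1, against 32.0% of all windows, and TTTGAA in 2, before RRM1 and DUT, against 13.3%. No match was found before CTPS1 or DCK. The stretches of 30 bases below hold the CCAAT and E2F-type matches of the inner windows of RRM2, TK1 and DUT, again in capitals.
RRM2, chr2:10122604-10122633, + strand: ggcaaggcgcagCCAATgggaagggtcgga
RRM2, chr2:10122634-10122663, + strand: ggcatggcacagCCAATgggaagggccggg
RRM2, chr2:10122661-10122690, + strand: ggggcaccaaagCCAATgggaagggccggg
TK1, chr17:78187112-78187141, - strand: ggccgggcgctgATTGGccccatggcggcg
TK1, chr17:78187081-78187110, - strand: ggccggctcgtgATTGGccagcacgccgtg
DUT, chr15:48332144-48332173, + strand: gggcggggctgGCGGGAAAtttcggttttg
DUT, chr15:48332159-48332188, + strand: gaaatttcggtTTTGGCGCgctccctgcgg
The 3 CCAAT matches of the inner RRM2 window each continue with the same bases, gggaaggg, which the match of its upstream window does not. The 2 of TK1 lie on the opposite strand. A match describes letters in a window and is neither a shown binding site nor a cause.

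In the 3 lines with the Y641 mutation, most of the 8 genes fell at 10xLCC by day 4 or day 6. The effect at day 2 was not compared between lines. In WSU-DLCL2 6 of 8 fell at day 2, 6 at day 4 and 6 at day 6, where 14.3%, 14.7% and 19.2% of all genes tested fell. In SU-DHL6 the counts were 0, 5 and 7, against 0.783%, 9.64% and 26.7% of all genes. In Karpas422 they were 0, 5 and 7, against 1.95%, 15.2% and 19.2%. The count of 0 at day 2 ran from 0 to 3 over the alternatives. With the beta-actin covariate it was 2 (TK1 and CTPS1), where 582 of 18873 genes fell. The median change over the 8 genes at day 6 was -0.96 in WSU-DLCL2 and -0.67 in SU-DHL6, with -1.31 in Karpas422, and the median over all genes tested was 0.02, -0.11 and -0.03. In Pfeiffer none of the 8 fell on any day, against 0%, 0.0158% and 0.0581% of all genes.

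**Figure D2:**
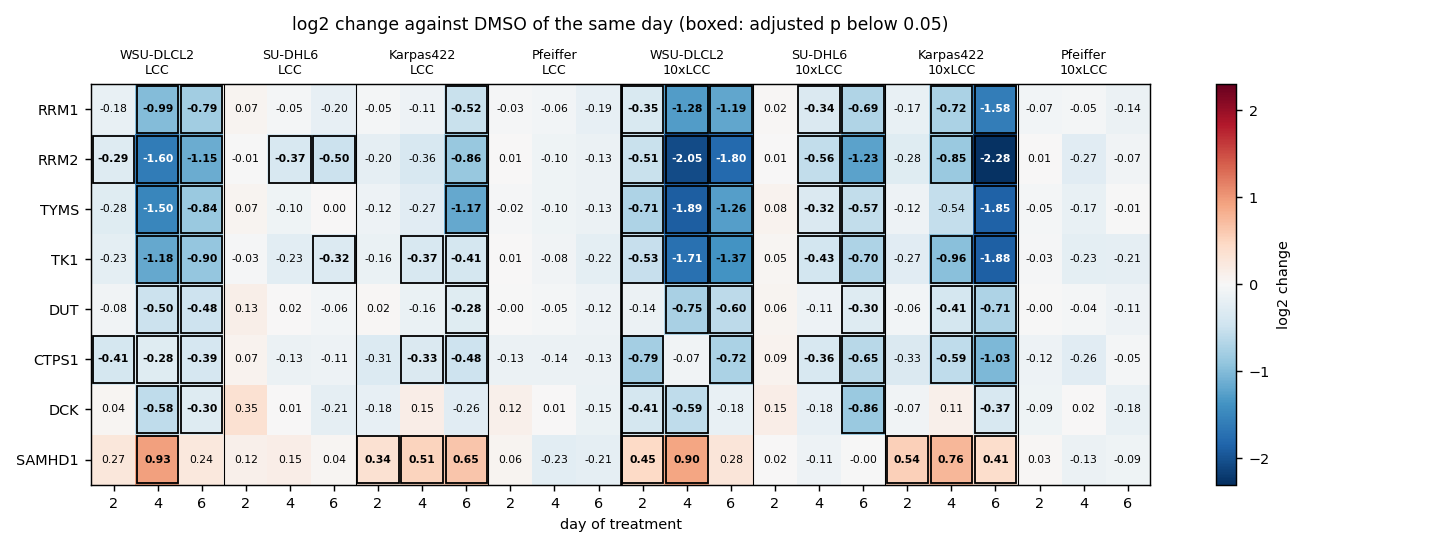
Log2 change of the 8 genes (rows) against DMSO of the same day, at LCC (left) and 10xLCC (right), by line and day (columns); numbers and colour give the change, and boxes mark an adjusted p below 0.05. RRM2 in Karpas422 at 10xLCC, day 6, has the lowest value, -2.28, the SAMHD1 row alone holds boxed rises, and the Pfeiffer columns hold no box.

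The counts at day 6 depend on how the arrays are scaled and on whether the beta-actin ratio is a covariate. Centring each array on the median of 4896 bright genes moved every gene at 10xLCC, day 6, by 0.15 in WSU-DLCL2, by 0.16 in SU-DHL6 and by 0.23 in Karpas422. The share of all genes that fell was then 13.8%, 15.6% and 12.4%, with 28.6%, 28.0% and 33.5% risen in place of 17.0%, 19.8% and 18.4%, and 6, 6 and 6 of the 8 genes fell. The same centring gave 9.74% fallen and 19.0% risen in WSU-DLCL2 at day 2, 7.64% and 17.0% in SU-DHL6 at day 4, 8.48% and 19.3% in Karpas422 at day 4, and 1.52% and 6.45% there at day 2. With the beta-actin ratio of each array as a covariate, 2 of 8 fell in SU-DHL6 at day 6 in place of 7, namely RRM2 (-0.88, adjusted p = 0.00242) and TK1 (-0.57, adjusted p = 0.0416), while 6 fell in Karpas422 and 6 in WSU-DLCL2. With this covariate 2.92% of all genes fell in SU-DHL6, 17.8% in Karpas422 and 19.2% in WSU-DLCL2. In SU-DHL6 the ratio at day 6 averaged -0.18 in DMSO and 0.34 at 10xLCC. No DMSO array was above -0.15 and no 10xLCC array below 0.19, so the fit can hardly separate ratio and drug. DUT lost its call there though its change was -0.37 with the covariate. A call lost with the covariate in a SU-DHL6 comparison that uses these 10xLCC arrays is thus not a shown absence of a fall. At day 4, where it averaged -0.12 and -0.05, all 5 falls kept an adjusted p below 0.05 with the covariate.

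RRM2, the small and cell cycle regulated subunit of ribonucleotide reductase, fell in each of the 3 Y641 lines at day 6. In WSU-DLCL2 its DMSO arrays of day 4 read 13.04, 13.20 and 13.08 (log2 intensity), the LCC arrays 11.50, 11.47 and 11.55, and the 10xLCC arrays 11.13, 11.01 and 11.03. The 3 doses did not overlap, and RRM2 fell by 2.05 ± 0.07 at 10xLCC (adjusted p = 6.19e-17), to a level 4.15-fold lower. At day 6 the 10xLCC arrays read 11.18, 11.18 and 11.21 against 12.98, 12.98 and 13.00 in DMSO, a change of -1.80 ± 0.07.

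In SU-DHL6 RRM2 showed no difference at day 2, where the 10xLCC arrays read 13.09, 13.08 and 13.08 and the DMSO arrays 12.90, 13.12 and 13.21. By day 4 the 10xLCC arrays were at 12.48, 12.52 and 12.48 against 13.02, 13.06 and 13.07, and by day 6 at 11.70, 11.85 and 11.58 against 12.82, 12.93 and 13.05. RRM2 fell by 0.56 ± 0.09 and then by 1.23 ± 0.09 (adjusted p = 1.82e-11), with no overlap of the groups on either day. Without the arrays of replicate B, RRM2 was the only 1 of the 5 genes that kept its call at day 4 in this line (-0.57, adjusted p = 0.00954). RRM1 and CTPS1 were also lost there without replicate C (adjusted p = 0.0722 and 0.0891), and CTPS1 without replicate A (0.0531).

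In Karpas422 the RRM2 arrays at 10xLCC, day 6, read 10.17, 9.77 and 9.95, all below the DMSO arrays at 12.38, 12.19 and 12.17. RRM2 fell by 2.28 ± 0.15 (adjusted p = 1.36e-12), 4.85-fold. With the beta-actin ratio as a covariate the change was -1.88. At day 4, when that ratio was near 0 in all groups of this line, RRM2 read 11.83, 12.11 and 11.78 at 10xLCC against 12.82, 12.72 and 12.75, a fall of 0.85 ± 0.15.

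RRM1, the catalytic subunit, fell in all 3 lines as RRM2 did. In WSU-DLCL2 at day 4 the 10xLCC arrays read 10.91, 10.94 and 10.97 and the DMSO arrays 12.13, 12.25 and 12.29, a change of -1.28 ± 0.07. At day 6 RRM1 fell by 1.19 ± 0.07 in WSU-DLCL2, by 0.69 ± 0.08 in SU-DHL6 and by 1.58 ± 0.09 in Karpas422, where the arrays read 10.26, 10.10 and 10.14 at 10xLCC and 11.80, 11.60 and 11.84 in DMSO. The groups did not overlap in any of these comparisons. With the beta-actin covariate the RRM1 change in SU-DHL6 at day 6 was -0.56 (adjusted p = 0.0575). Whether RRM1 and RRM2 differ in the size of their fall was not tested, and its order depends on the probe set: averaged over both sets of each gene, the day 6 changes of RRM1 and RRM2 were -1.37 and -1.80 for WSU-DLCL2, -1.38 with -0.93 for SU-DHL6, and -1.81 with -1.81 for Karpas422.

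**Figure D3:**
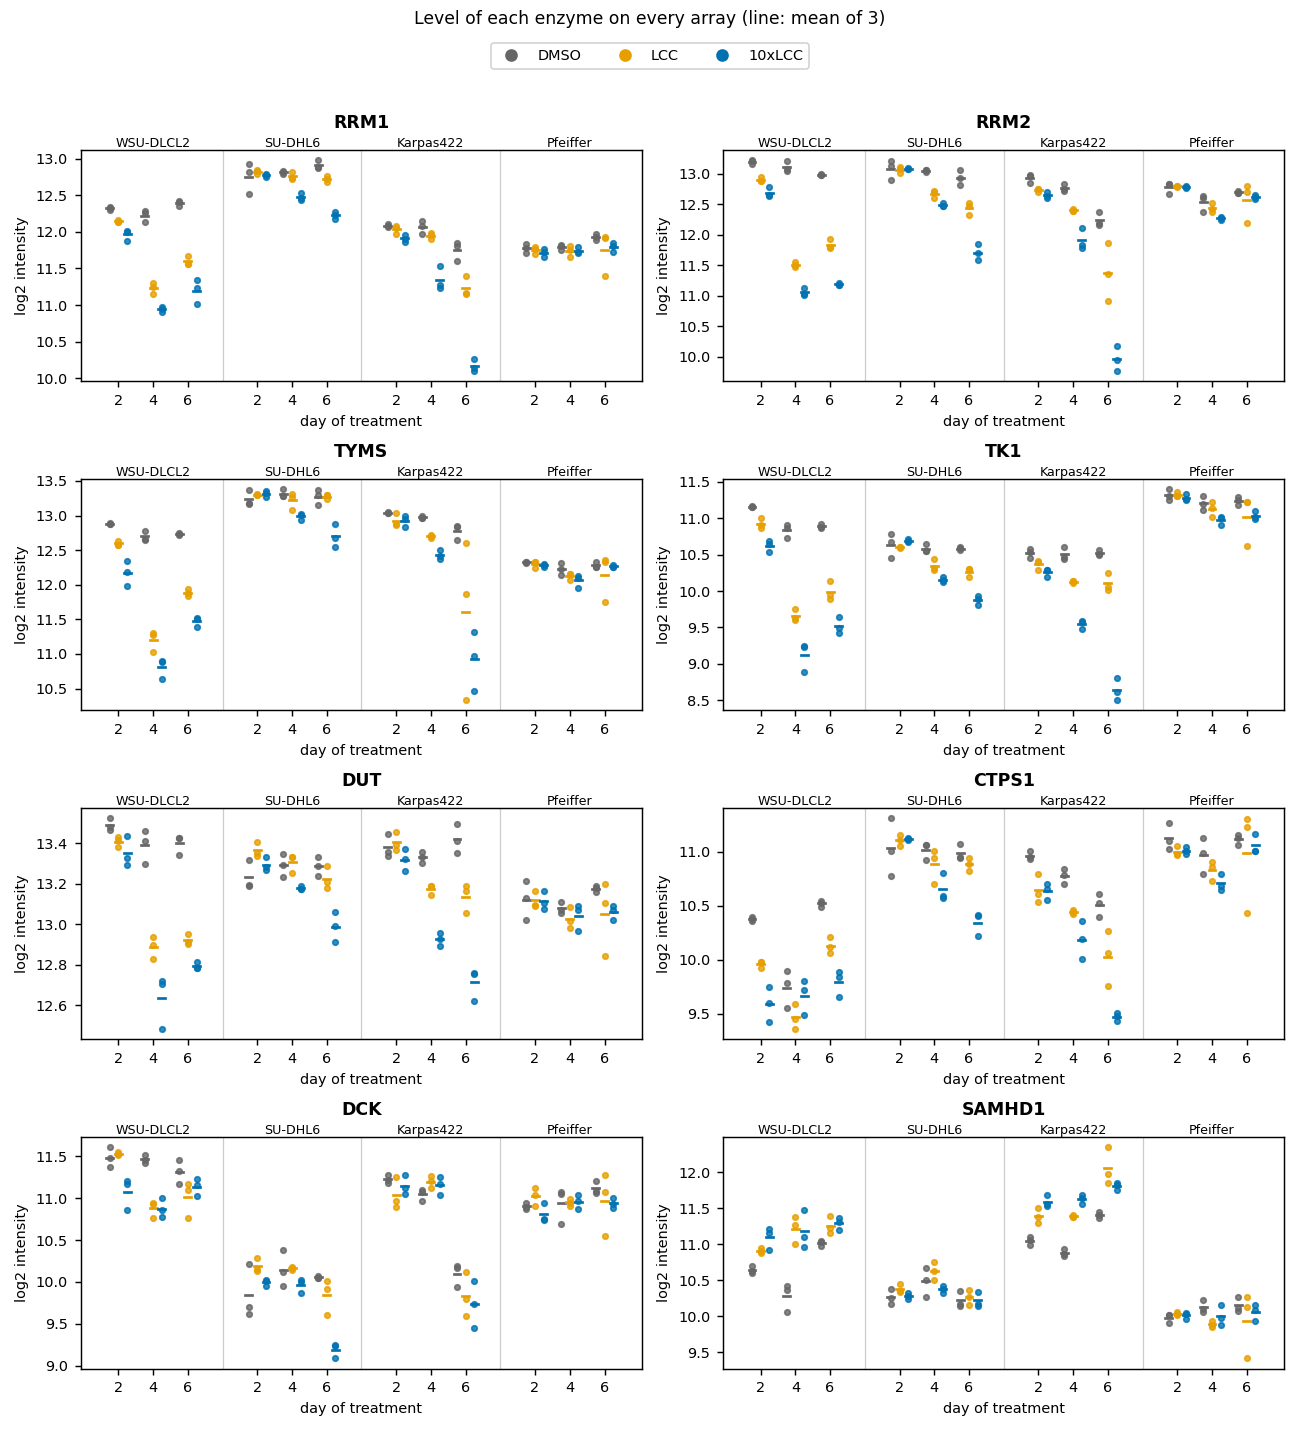
Log2 intensity (y axis) of each of the 8 genes on every array, by line and day of treatment (x axis) and dose (colour); points are single arrays and short lines are means of 3. RRM1, RRM2, TYMS and TK1 at 10xLCC lie below DMSO from day 2 in WSU-DLCL2 and at days 4 and 6 in SU-DHL6 and Karpas422, while in Pfeiffer the 3 doses lie close together apart from 1 LCC array at day 6.

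TYMS and TK1, which feed the dTMP pool by synthesis and by salvage, followed the same course. In WSU-DLCL2 TYMS read 10.89, 10.64 and 10.89 at 10xLCC, day 4, against 12.67, 12.78 and 12.65 in DMSO, and fell by 1.89 ± 0.09 (3.71-fold). TK1 read 9.24, 9.25 and 8.89 against 10.72, 10.87 and 10.91, and fell by 1.71 ± 0.09 (3.27-fold). Both were nearer to DMSO at day 6, with changes of -1.26 ± 0.09 and -1.37 ± 0.09, and the difference between days 4 and 6 was not tested.

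In SU-DHL6 at day 6 TYMS fell by 0.57 ± 0.09 and TK1 by 0.70 ± 0.08, TK1 arrays reading 9.94, 9.89 and 9.81 at 10xLCC against 10.56, 10.58 and 10.60. With the beta-actin covariate the TYMS change there was -0.24 (adjusted p = 0.535). In Karpas422 TK1 read 9.48, 9.59 and 9.57 at day 4 and 8.61, 8.51 and 8.81 at day 6, against 10.45 to 10.60 and 10.50 to 10.56 in DMSO. It fell by 0.96 ± 0.08 at day 4 and changed by -1.88 ± 0.08 at day 6 (adjusted p = 1.53e-15).

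TYMS in Karpas422 was less even. Its 10xLCC arrays of day 4 read 12.42, 12.51 and 12.37 against 13.00, 12.96 and 12.96, without overlap, yet the change of -0.54 ± 0.29 had an adjusted p of 0.198. The model shares its spread with the LCC arrays of day 6, which read 12.61, 11.87 and 10.34 and whose beta-actin ratios ran from 1.12 to 3.56; without the 4 arrays named above, replicate C of that LCC group among them, the adjusted p at day 4 was 0.00777. At day 6 TYMS read 11.32, 10.47 and 10.97 at 10xLCC against 12.84, 12.65 and 12.84 and fell by 1.85 ± 0.29. With the ratio as a covariate this change was -0.97 (adjusted p = 3.42e-07).

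DUT, the dUTPase, changed less in size. In WSU-DLCL2 it read 12.48, 12.71 and 12.72 at 10xLCC, day 4, against 13.30, 13.41 and 13.46, a fall of 0.75 ± 0.07. At day 6 it fell by 0.60 ± 0.07 there, by 0.71 ± 0.07 in Karpas422 and by 0.30 ± 0.07 in SU-DHL6. The fall in SU-DHL6 lost its call after centring on bright genes (-0.13, adjusted p = 0.106), without replicate B (-0.28, adjusted p = 0.0705) and with the beta-actin covariate (-0.37, adjusted p = 0.167).

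CTPS1, the CTP synthase that activated lymphocytes depend on, fell at day 6 in all 3 Y641 lines, by 0.72 ± 0.10 in WSU-DLCL2, by 0.65 ± 0.11 in SU-DHL6 and by 1.03 ± 0.11 in Karpas422. With the beta-actin covariate the change in SU-DHL6 was -0.40 (adjusted p = 0.369). Its Karpas422 arrays read 9.51, 9.43 and 9.48 at 10xLCC and 10.53, 10.39 and 10.61 in DMSO, without overlap. In WSU-DLCL2 it had already fallen by 0.79 ± 0.10 at day 2, but at day 4 its change was -0.07 ± 0.10 (adjusted p = 0.637). On that day the DMSO arrays themselves were low, at 9.55, 9.90 and 9.78, against 10.35 to 10.40 at day 2 and 10.49 to 10.54 at day 6, while the 10xLCC arrays stayed between 9.42 and 9.89 over the 3 days.

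DCK, the deoxycytidine kinase that also activates cytarabine, had a different order of lines. It fell in WSU-DLCL2 at days 2 and 4, by 0.41 ± 0.11 and 0.59 ± 0.11, and its change at day 6 was -0.18 ± 0.11. The call at day 2 was lost without replicate C (-0.24, adjusted p = 0.272) and with the beta-actin covariate (-0.37, adjusted p = 0.0825). In SU-DHL6 it fell at day 6 by 0.86 ± 0.12, the 10xLCC arrays reading 9.24, 9.25 and 9.09 against 10.04, 10.05 and 10.07, though with the beta-actin covariate the change was -0.51 (adjusted p = 0.312). In Karpas422 it fell at day 6 by 0.37 ± 0.13 with overlapping groups, and the call was lost with the covariate (-0.09, adjusted p = 0.57) after centring (-0.14, adjusted p = 0.323) and without replicate B or C (adjusted p = 0.171 and 0.17).

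SAMHD1, the dNTP triphosphohydrolase, was the 1 gene of the 8 that rose, by the probe set used for it. In Karpas422 it read 11.56, 11.69 and 11.53 at 10xLCC, day 2, against 11.06, 10.99 and 11.10, and rose by 0.54 ± 0.10, where 4.65% of all genes tested rose. The call was lost without replicate B (0.46, adjusted p = 0.132). At day 4 the arrays read 11.65, 11.57 and 11.69 against 10.84, 10.87 and 10.93, a rise of 0.76 ± 0.10 (1.69-fold; 10.8% of all genes rose), and at day 6 the rise was 0.41 ± 0.10 (18.4% rose). In WSU-DLCL2 it rose by 0.45 ± 0.12 at day 2 and by 0.90 ± 0.12 at day 4, where 11.1% and 18.9% of genes rose, and its change at day 6 was 0.28 ± 0.12 (adjusted p = 0.0652).

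The DMSO level of SAMHD1 itself moved between days in WSU-DLCL2. The DMSO arrays read 10.06, 10.36 and 10.42 at day 4, below the 10.60 to 10.70 of day 2 and the 10.98 to 11.05 of day 6, while the 10xLCC arrays lay between 10.93 and 11.48 on all 3 days. The beta-actin ratio at day 2 averaged -0.07 in DMSO and 0.17 at 10xLCC, and with it as a covariate the change of SAMHD1 at day 2 was 0.18 (adjusted p = 0.414); without replicate B it was 0.41 (adjusted p = 0.0954). In SU-DHL6 no change of SAMHD1 was called at 10xLCC by this probe set, with 0.00 ± 0.10 at day 6, whereas the mean of its 6 probe sets fell there at day 4 (-0.27, adjusted p = 0.035) and at day 6 (-0.46, adjusted p = 0.000179).

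The probe sets of SAMHD1 disagreed. The rise rests on 235529_x_at, and 235964_x_at and 234987_at rose with it at day 4 in both lines, by 1.07 ± 0.11 and 1.33 ± 0.12 in WSU-DLCL2 and by 0.76 ± 0.10 and 0.74 ± 0.13 in Karpas422. Probe set 204502_at rose by 0.43 ± 0.10 in WSU-DLCL2 at day 4, but fell there by 0.48 ± 0.10 at day 2 and by 0.50 ± 0.10 at day 6, and its changes in Karpas422 were -0.13, 0.10 and -0.23 on the 3 days, none called. In SU-DHL6 it fell by 0.56 ± 0.14 at day 4, and at day 6 its change was -1.36 ± 0.14, again a called fall. Averaged over all 6 probe sets, the SAMHD1 change in Karpas422 at day 6 was -0.02 (adjusted p = 0.912) and that in WSU-DLCL2 at day 2 was 0.01 (adjusted p = 0.94), so that these 2 rises depend on the probe set.

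Among the other genes with several probe sets, the further sets fell too, by other amounts. TYMS 217684_at, a dim set that reached a log2 of 6 on 35 arrays, was left out. The 6 other further sets of RRM1, RRM2, TYMS, TK1 and DUT gave 18 values over the 3 Y641 lines at 10xLCC, day 6. All 18 fell, by 0.32 to 2.10. The share of all probe sets tested that fell there was 19.6% for WSU-DLCL2, 26.6% for SU-DHL6 and 17.6% for Karpas422. These sets read genes already called by the set used, so their falls are not independent of those calls. RRM1 201476_s_at fell by 2.07 ± 0.14 in SU-DHL6 at day 6 where the set used, 201477_s_at, fell by 0.69 ± 0.09, and RRM2 201890_at fell by 0.64 ± 0.08 there where 209773_s_at fell by 1.23 ± 0.09. In WSU-DLCL2 both RRM2 sets fell by 1.80, whereas the mean of both RRM1 sets fell further than the set used, as given above. Whether RNA integrity bears on how far the sets of a gene differ was not tested.

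**Figure D4:**
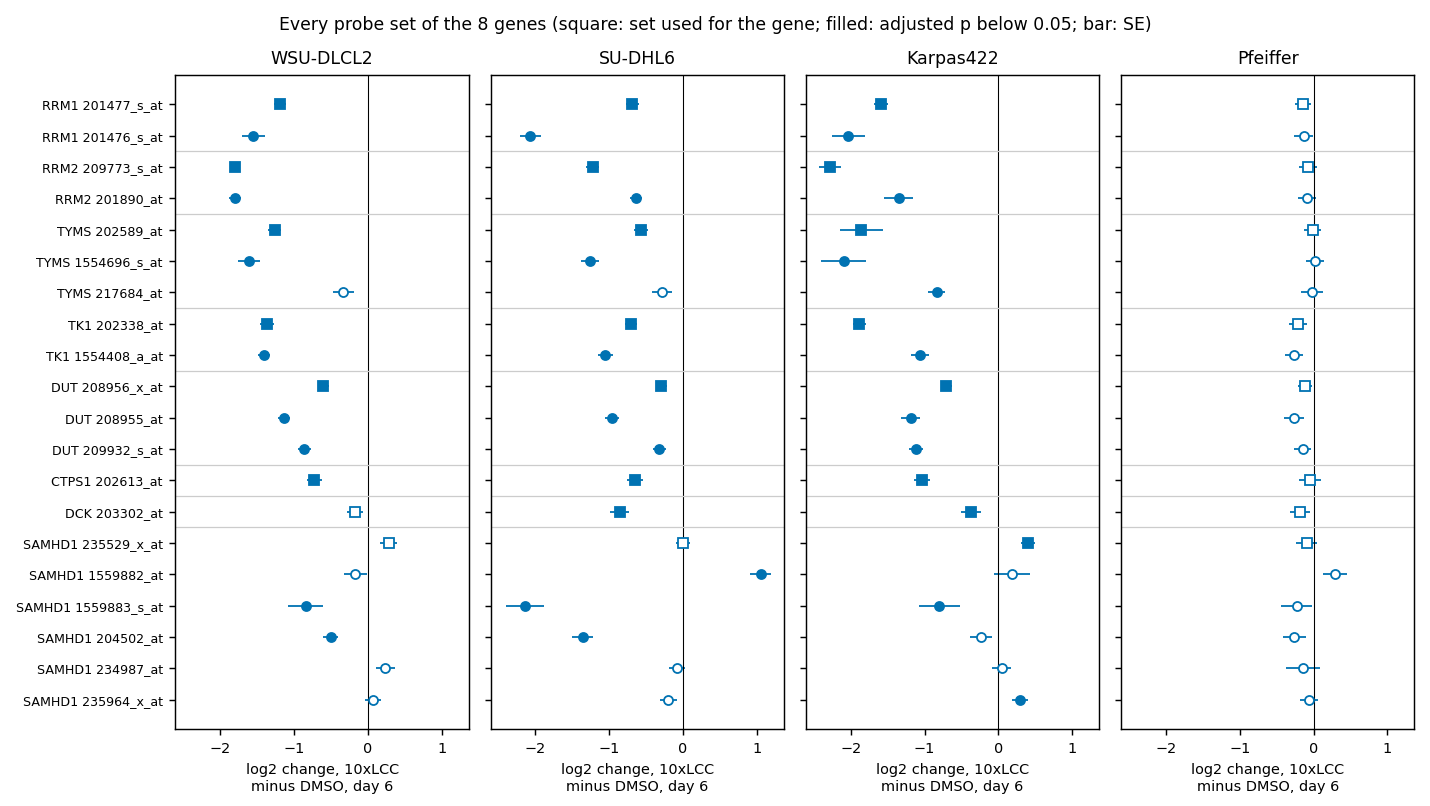
Log2 change at 10xLCC minus DMSO, day 6 (x axis), of all 20 probe sets of the 8 genes (rows), 1 panel per line; squares mark the set used for the gene, filled symbols an adjusted p below 0.05 and bars the SE. The sets of RRM1, RRM2, TYMS, TK1 and DUT lie left of 0 in the 3 Y641 lines, those of SAMHD1 lie on both sides, and no Pfeiffer symbol is filled.

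At the lower dose 7 of the 8 genes fell at days 4 and 6 in WSU-DLCL2, all but SAMHD1, and 1 and 2 did in SU-DHL6. In WSU-DLCL2 2 of 8 fell at LCC at day 2 (RRM2 and CTPS1), 7 at day 4 and 7 at day 6, where 2.99%, 12.6% and 11.2% of all genes fell. At day 2 RRM2 lost its call without replicate A, B or C (adjusted p = 0.096, 0.102 and 0.177) and CTPS1 without A or C (0.0893 and 0.171). CTPS1 lost it at day 4 without B or C (0.379 and 0.213) and with the beta-actin covariate (0.144), and at day 6 without C (0.0652). DCK lost it at day 6 without A or B (0.054 and 0.585) and after centring (0.0711). RRM2 fell by 1.60 ± 0.07 at day 4 and by 1.15 ± 0.07 at day 6, and its LCC arrays of day 6, at 11.79, 11.93 and 11.79, lay between the other 2 doses. In SU-DHL6 0, 1 and 2 genes fell, against 0.392%, 2.61% and 7.69%: RRM2 by 0.37 ± 0.09 at day 4 and 0.50 ± 0.09 at day 6, and TK1 by 0.32 ± 0.08 at day 6. The RRM2 call at day 4 was lost without replicate B or C (adjusted p = 0.131 and 0.1), and the TK1 call without B or C (0.137 and 0.121) and with the beta-actin covariate (0.052). TYMS in SU-DHL6 read 13.30, 13.29 and 13.23 at LCC, day 6, inside the DMSO range of 13.15 to 13.37.

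In Karpas422 0, 2 and 6 genes fell at LCC, against 0.403%, 2.98% and 14.6% of all genes; after centring on bright genes 8.87% of all genes fell and 28.7% rose at day 6. At day 4 the 2 were CTPS1, lost without replicate A, B or C (adjusted p = 0.357, 0.237 and 0.108), and TK1, lost without A or B (0.169 and 0.118). RRM2 fell by 0.86 ± 0.15 at day 6, with arrays at 11.87, 11.35 and 10.92. TYMS fell by 1.17 ± 0.29 there, with arrays at 12.61, 11.87 and 10.34, but without replicate C the change was -0.51 (adjusted p = 0.152), and with the beta-actin covariate it was -0.18 (adjusted p = 0.419). Without replicate C, CTPS1 (-0.30, adjusted p = 0.0912) and DUT (-0.25, adjusted p = 0.08) were not called either, and without replicate B DUT was not (-0.26, adjusted p = 0.123). CTPS1 and DUT were also lost with the beta-actin covariate (adjusted p = 0.0938 and 0.058), and TK1 and DUT after centring (0.0912 and 0.345). SAMHD1 rose at LCC on all 3 days in Karpas422, by 0.34 ± 0.10, 0.51 ± 0.10 and 0.65 ± 0.10, where 2.27%, 5.9% and 11.7% of all genes rose. At day 2 its adjusted p was 0.0495, and the call was lost without replicate A, B or C (adjusted p from 0.2 to 0.351) and after centring (0.103). The call at day 4 was lost without replicate B (0.50, adjusted p = 0.0798). In WSU-DLCL2 SAMHD1 rose at LCC at day 4, by 0.93 ± 0.12, where 16.2% of all genes rose. In Pfeiffer none of the 8 fell at LCC, against 0%, 0% and 0% of all genes.

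The 2 doses were also compared with each other at day 6. In WSU-DLCL2 5 of 8 genes were lower at 10xLCC than at LCC, against 9.07% of all genes, RRM2 by 0.65 ± 0.07. In SU-DHL6 7 were lower, against 15.6%, RRM2 by 0.73 ± 0.09 and DCK by 0.65 ± 0.12. None kept an adjusted p below 0.05 with the beta-actin covariate, with which 176 of 18895 genes were lower. The ratio averaged -0.03 at LCC and 0.34 at 10xLCC. In Karpas422 5 were lower, against 8.64%, TK1 by 1.47 ± 0.08 and RRM2 by 1.41 ± 0.15, and the ratio averaged 2.37 at LCC and 2.25 at 10xLCC. With it as a covariate 7 were called, TYMS (-0.79, adjusted p = 1.83e-06) and SAMHD1 (-0.22, adjusted p = 0.0217) being added, and 2133 of 18873 genes were lower. In Pfeiffer 0 were lower, against 0.0422%. When only the 2 groups were fitted, 1 of the 5 genes of WSU-DLCL2, RRM2, kept its call, and 159 of 18540 genes were lower. Without replicate B, RRM1, TK1 and CTPS1 lost theirs in this line (adjusted p = 0.192, 0.192 and 0.389). TYMS and CTPS1 lost theirs without replicate A (0.0605 and 0.0762). CTPS1 also lost its call without replicate C (0.0648), after centring (0.0608) and without the 4 arrays named above (0.145).

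The 10xLCC effect at day 6 was then compared with that at day 2. In WSU-DLCL2 5 of 8 genes (RRM1, RRM2, TYMS, TK1 and DUT) had a lower effect at day 6 than at day 2, against 6.4% of all genes. TYMS was not called when its probe sets were averaged (-0.30, adjusted p = 0.0951) or without replicate A (-0.51, adjusted p = 0.0995), and DUT was not without replicate B (-0.46, adjusted p = 0.0645) or C (-0.44, adjusted p = 0.0729). In SU-DHL6 7 had, against 21.1%, RRM2 by 1.23 ± 0.12. With the beta-actin covariate 1 had, where 252 of 18895 genes did. DUT was not called without replicate B or after centring (adjusted p = 0.207 and 0.454). In Karpas422 6 had, against 10.2%, RRM2 by 1.99 ± 0.21 and TK1 by 1.61 ± 0.12. TYMS (-1.74 ± 0.42) was not called without replicate B (-1.55, adjusted p = 0.155). With the covariate 7 had, where 1899 of 18873 genes did. In Pfeiffer 0 had, against 0%.

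Pfeiffer, the line without the Y641 mutation, gave small values. At 10xLCC, day 6, RRM2 read 12.59, 12.62 and 12.65 against 12.71, 12.68 and 12.69 in DMSO, a difference of -0.07 ± 0.12 with a 95% interval from -0.31 to 0.16. TK1 read 10.98, 11.01 and 11.10 against 11.28, 11.19 and 11.25, a difference of -0.21 ± 0.12 with an interval from -0.45 to 0.04. The groups did not overlap for 5 of the 8 genes at day 6. How many of all genes had no overlap was not counted, so nothing is read from this count. In limma 0 of the 8 had an unadjusted p below 0.05 on that day, and 923 of 18935 genes did. At day 4 RRM2 read 12.24, 12.29 and 12.27 against 12.60, 12.63 and 12.37 (-0.27 ± 0.12, interval from -0.50 to -0.03), and it was the 1 gene of the 8 with an unadjusted p below 0.05.

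The spread in Pfeiffer includes the LCC array of day 6, replicate B, on which all 8 genes were lower than on the other 2 arrays of the group, RRM2 at 12.19 against 12.80 and 12.71 and SAMHD1 at 9.42 against 10.13 and 10.28. How many of all genes were lower on it was not counted. Centring on bright genes moved every gene of Pfeiffer at LCC, day 6, by 0.19 against DMSO. Without the 4 arrays named above, replicate B of that LCC group among them, RRM2 was called at day 4 (-0.27, adjusted p = 0.0323). After centring on bright genes RRM2 and CTPS1 were called at day 4 (-0.25 for each, adjusted p = 0.0075 and 0.0463), and no gene of the 8 was called in Pfeiffer at day 6 in either setting.

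The differences between lines were tested in 1 model over the arrays of all 4 lines. At day 6 the 10xLCC effect was higher in Pfeiffer than the mean of the 3 Y641 lines for 6 of 8 genes, where 26.6% of all genes differed: RRM2 by 1.69 ± 0.12, TYMS by 1.22 ± 0.21, TK1 by 1.11 ± 0.10, RRM1 by 1.01 ± 0.10, CTPS1 by 0.75 ± 0.13 and DUT by 0.42 ± 0.07. With the beta-actin covariate 6 were called at day 6, where 2411 of 19224 genes were higher and 2217 lower. At day 4 6 of 8 differed, against 15.3%, 5 higher in Pfeiffer and SAMHD1 lower by 0.64 ± 0.13; without replicate B TYMS was not called (0.72, adjusted p = 0.141). The line and its Y641 status cannot be told apart, since Pfeiffer is the single line without a Y641 mutation, and LCC doses differ between lines.

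The Y641 lines differed among themselves as well. SU-DHL6 had a weaker effect than WSU-DLCL2 for RRM1, RRM2, TYMS, TK1 and DUT at both day 4 and day 6; its effect was also lower for SAMHD1 at day 4, by 1.01 ± 0.16, and for DCK at day 6, by 0.68 ± 0.18. In all 6 and 6 of 8 genes differed, against 18.9% and 28.3% of all genes. At day 6 the call for RRM1 depended on its probe set: with the mean of both sets the difference was -0.0044 (adjusted p = 0.988) in place of 0.50 ± 0.12. Averaging its probe sets, TYMS was not called at day 6 (0.36, adjusted p = 0.125). Without replicate B, 2 of these 6 calls remained at day 6, where 1709 of 19131 genes were higher and 2082 lower. Without replicate A, TYMS, DUT and DCK were lost (adjusted p = 0.142, 0.138 and 0.0586). With the beta-actin covariate 6 of the 8 genes were called, where 2552 of 19224 genes were higher and 2598 lower. Karpas422 differed from the mean of the other 2 lines for 2 of 8 genes at day 4, against 17%, with RRM2 higher by 0.45 ± 0.13 and DCK by 0.49 ± 0.15; without replicate B neither was called (0.30 with an adjusted p of 0.279 and 0.44 with 0.084), and without replicate A DCK was not (0.42, adjusted p = 0.226). At day 6 it had a stronger effect for 5 of 8 genes, RRM1, RRM2, TYMS, TK1 and DUT, against 25.3%, RRM2 lower by 0.77 ± 0.13. Without replicate B, 3 of these 5 calls were left, where 1605 of 19131 genes were higher and 1983 lower. DUT was also lost without replicate A (adjusted p = 0.0965) and after centring (0.0669). With the beta-actin covariate 5 of the 8 genes were called, where 2559 of 19224 genes were higher and 2409 lower.

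In DMSO at day 4 the 4 lines held these genes at different levels, compared gene by gene since levels of different probe sets are not comparable. Of the 8 genes, 5 differed between WSU-DLCL2 and SU-DHL6 (34.2% of all genes), 5 between WSU-DLCL2 and Karpas422 (37.8%), 7 between WSU-DLCL2 and Pfeiffer (40%), 4 between SU-DHL6 and Karpas422 (38.1%), 7 between SU-DHL6 and Pfeiffer (39.7%) and 5 between Karpas422 and Pfeiffer (43.2%).

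RRM1 was highest in SU-DHL6 (12.79 to 12.83), then came WSU-DLCL2 (12.13 to 12.29) and Karpas422 (11.97 to 12.14), which did not differ by the test, and Pfeiffer was lowest (11.75 to 11.82). After centring on bright genes WSU-DLCL2 was above Karpas422 (0.33, adjusted p = 8.97e-08), and Karpas422 was not called above Pfeiffer (0.10, adjusted p = 0.111). The latter call was also lost with probe sets averaged (adjusted p = 0.0896) and without replicate B or C (0.0547 and 0.108). RRM2 was at 13.04 to 13.20 in WSU-DLCL2 and 13.02 to 13.07 in SU-DHL6, with no called difference, and lower at 12.72 to 12.82 in Karpas422 and 12.37 to 12.63 in Pfeiffer, again with none between these. Without replicate B, Karpas422 was not called below WSU-DLCL2 or SU-DHL6 for RRM2 (adjusted p = 0.142 and 0.171). TYMS ran from SU-DHL6 (13.28 to 13.38) over Karpas422 (12.96 to 13.00) and WSU-DLCL2 (12.65 to 12.78), to Pfeiffer (12.15 to 12.31), which was lower than each. SU-DHL6 was above WSU-DLCL2 by 0.61 ± 0.18, and the differences of Karpas422 from these 2 lines were not called. Without the 4 arrays named above, Karpas422 was below SU-DHL6 and above WSU-DLCL2 (adjusted p = 0.00444 and 0.0237). TK1 had another order, with the highest level in Pfeiffer at 11.11 to 11.30, above WSU-DLCL2 at 10.72 to 10.91, with SU-DHL6 (10.55 to 10.64) and Karpas422 (10.45 to 10.60) lowest and not called different. Without replicate A, B or C, WSU-DLCL2 was not called above SU-DHL6 for TK1 (adjusted p = 0.0641, 0.0629 and 0.213).

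DUT was lower in Pfeiffer (13.06 to 13.11) than in the other 3 lines, which read from 13.23 to 13.46 and among which no difference was called. With the mean of its 3 probe sets, SU-DHL6 was above Karpas422 by 0.34 (adjusted p = 4.63e-05). After centring on bright genes Pfeiffer was not called below SU-DHL6 or Karpas422 (adjusted p = 0.0628 and 0.289), and WSU-DLCL2 was above both (0.0285 and 0.00176). CTPS1 was lowest in WSU-DLCL2 on this day, at 9.55 to 9.90, below the other lines by 1.03 ± 0.12 to 1.27 ± 0.12, though at day 6 its DMSO arrays there, at 10.49 to 10.54, lay inside the 10.39 to 10.61 of Karpas422. At day 4 SU-DHL6, Pfeiffer and Karpas422 read from 10.70 to 11.12 with no called difference. After centring Karpas422 was below SU-DHL6 by 0.34 (adjusted p = 1.53e-05) and below Pfeiffer by 0.36 (adjusted p = 4.98e-06). DCK was lowest in SU-DHL6 (9.95 to 10.38) and highest in WSU-DLCL2 (11.42 to 11.51), with Karpas422 (10.96 to 11.10) and Pfeiffer (10.69 to 11.08) between them and not called different. SAMHD1 was highest in Karpas422 (10.84 to 10.93), above SU-DHL6 (10.27 to 10.67) by 0.40 ± 0.11. WSU-DLCL2 (10.06 to 10.42) and Pfeiffer (10.05 to 10.23) followed. SU-DHL6 was above Pfeiffer by 0.36 ± 0.11, and WSU-DLCL2 was not called different from either. Without replicate A or B, SU-DHL6 was not called above Pfeiffer (adjusted p = 0.126 and 0.065), and without replicate C it was not called below Karpas422 (0.12).

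Without drug, the levels drifted over the days mainly in Karpas422. From day 2 to day 6 in DMSO 5 of 8 genes changed there, against 31.4% of all genes: DCK fell by 1.12 ± 0.13, from 11.18, 11.21 and 11.28 to 10.17, 9.94 and 10.19, RRM2 by 0.69 ± 0.15, CTPS1 by 0.45 ± 0.11 and RRM1 by 0.33 ± 0.09, and SAMHD1 rose by 0.36 ± 0.10. The mean beta-actin ratio of these groups went from -0.03 to 1.25, and with it as a covariate 2 of the 8 were called, DCK (-0.77, adjusted p = 4.87e-05) and TYMS, whose sign turned from -0.27 ± 0.29 to 0.86 (adjusted p = 2.88e-05). With this covariate 2638 of 18873 genes rose and 1963 fell. Without replicate B, RRM1, CTPS1 and SAMHD1 lost their calls (adjusted p = 0.19, 0.0583 and 0.146). The further sets RRM1 201476_s_at, TYMS 1554696_s_at and TK1 1554408_a_at fell by 2.25 ± 0.22, 1.73 ± 0.30 and 1.29 ± 0.13 over these days.

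In WSU-DLCL2 2 of 8 changed over the same days in DMSO, against 12.1%: RRM2 fell by 0.21 ± 0.07 and SAMHD1 rose by 0.37 ± 0.12, and without replicate A, B or C neither was called, with adjusted p from 0.0623 to 0.263. In SU-DHL6 0 changed, against 3.55%, and in Pfeiffer 0, against 0.00528%; in limma 0 of the 8 in each of these lines had an unadjusted p below 0.05.

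Genes next to these enzymes in nucleotide metabolism were counted from lists at 10xLCC, day 6, where 19.2%, 26.7% and 19.2% of all genes tested fell in WSU-DLCL2, SU-DHL6 and Karpas422 and 17.0%, 19.8% and 18.4% rose. Of 13 other dNTP genes tested, 7, 9 and 7 fell in these lines in that order, and 2 rose in the last. DTYMK, the thymidylate kinase that acts after TYMS and TK1, fell by 1.15 ± 0.08, 0.81 ± 0.07 and 1.37 ± 0.08 in these lines, NME1, a nucleoside diphosphate kinase, changed by -0.51 ± 0.07, -0.92 ± 0.08 and -1.84 ± 0.12, and DCTPP1, a dCTP pyrophosphatase, fell by 0.54 ± 0.09, 1.11 ± 0.10 and 1.37 ± 0.12. RRM2B, the p53-inducible small subunit that serves outside S phase, was not called in any of the 4 lines, with 0.09 ± 0.13, -0.25 ± 0.12, 0.41 ± 0.17 and, in Pfeiffer, -0.43 ± 0.16. TK2, the mitochondrial thymidine kinase, rose in Karpas422 by 0.69 ± 0.12; it is named here after its values were seen, as is DCTD, the dCMP deaminase, which rose there by 0.38 ± 0.14 and fell in WSU-DLCL2 and SU-DHL6 by 0.52 ± 0.08 and 0.46 ± 0.11.

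Of 11 purine synthesis genes 7, 8 and 11 fell in WSU-DLCL2, SU-DHL6 and Karpas422, and 1 rose in WSU-DLCL2, IMPDH2, an IMP dehydrogenase named after its values were seen, by 0.45 ± 0.06. GMPS, the GMP synthase, fell by 0.79 ± 0.07, 0.89 ± 0.08 and 1.74 ± 0.11, PAICS by 0.50 ± 0.06, 0.82 ± 0.08 and 1.42 ± 0.10, and GART by 0.61 ± 0.10, 1.02 ± 0.10 and 1.05 ± 0.10. Of 4 pyrimidine genes 3, 2 and 3 fell and 0, 1 and 0 rose, the rise being that of CTPS2, the second CTP synthase, also named after its values were seen, by 0.66 ± 0.11. UMPS, which makes UMP, fell by 0.63 ± 0.09, 0.99 ± 0.12 and 1.09 ± 0.12, and DHODH by 0.30 ± 0.09, 0.45 ± 0.09 and 0.66 ± 0.12.

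Of 16 salvage, breakdown and transport genes tested, 7, 9 and 6 fell and 4, 1 and 2 rose, against the same shares of all genes. PNP, the purine nucleoside phosphorylase, fell by 0.70 ± 0.12, 1.85 ± 0.10 and 1.65 ± 0.18, the nucleoside transporter SLC29A1 by 0.88 ± 0.09, 1.26 ± 0.14 and 1.17 ± 0.17, and HPRT1 by 0.87 ± 0.08, 0.80 ± 0.07 and 1.13 ± 0.10. In Pfeiffer none of the genes tested in the 4 lists was called. The medians of the 4 lists at day 6 ran from -0.50 to -0.22 in WSU-DLCL2, from -0.50 to -0.31 in SU-DHL6 and from -1.17 to -0.10 in Karpas422.

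The list counts in SU-DHL6 depended on the covariate. With the beta-actin covariate 4 of 13 dNTP genes fell there in place of 9, 2 of 11 purine genes in place of 8, 0 of 4 pyrimidine genes in place of 2 and 3 of 16 salvage genes in place of 9, while 2.92% of all genes fell and 5.95% rose. In Karpas422 6, 10, 4 and 6 genes of the lists, in the same order, fell with the covariate, against 17.8% of all genes, and in WSU-DLCL2 7, 7, 3 and 7 did, against 19.2%. After centring on bright genes the falls numbered 7, 6, 2 and 7 for WSU-DLCL2, then 7, 7, 2 and 7 for SU-DHL6 and 6, 11, 3 and 6 for Karpas422, where the shares of all genes were the 13.8%, 15.6% and 12.4% given above.

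**Figure D5:**
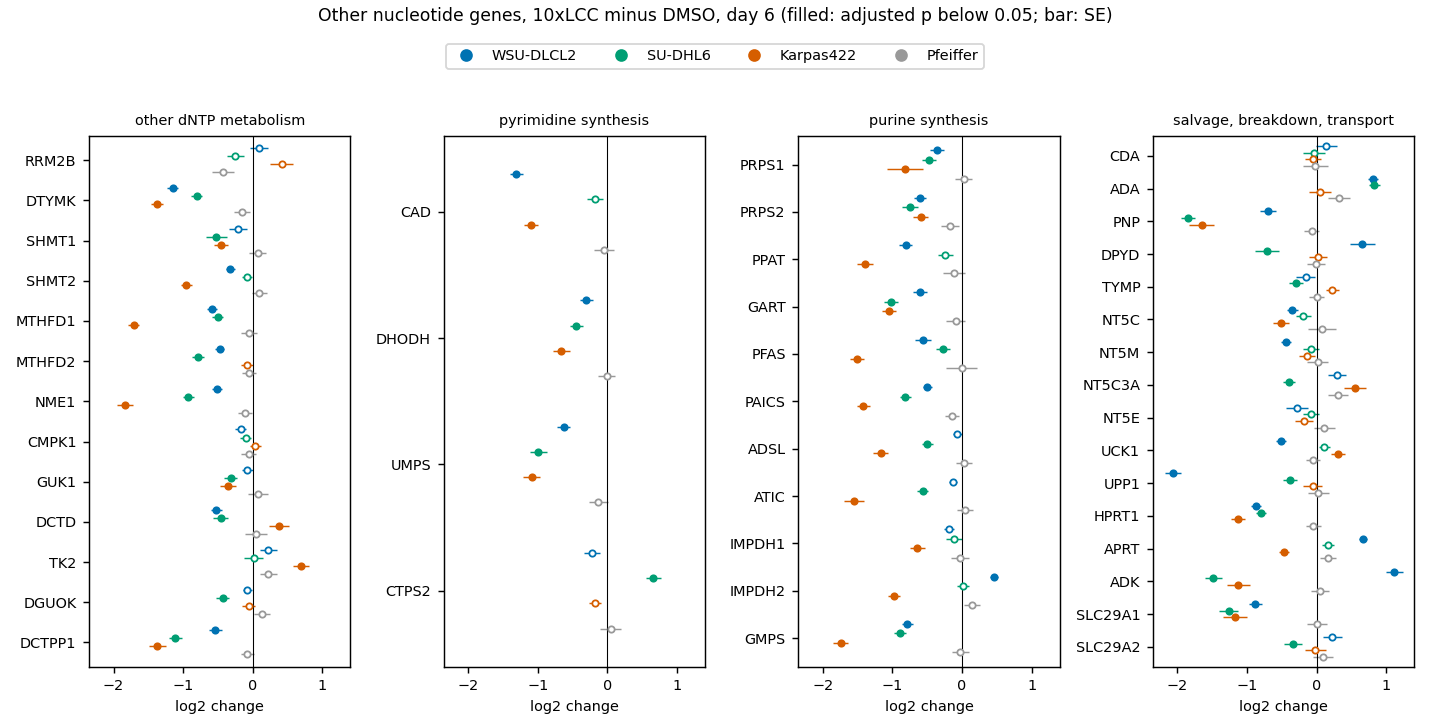
Log2 change at 10xLCC minus DMSO, day 6 (x axis), of the genes of 4 lists of nucleotide metabolism (rows), with 1 symbol per line (colour), filled for an adjusted p below 0.05, and bars for the SE. All 11 purine synthesis genes are filled and left of 0 in Karpas422, the salvage panel holds filled symbols on both sides, and no Pfeiffer symbol is filled.

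The genes most like each enzyme were found by Pearson's r over the 36 group means, centred within each line, among 14317 genes; the group means of a line come from the same cells and days, so r is a description. RRM1 was most like GINS1 (0.99), SPC25 (0.98) and GMNN (0.98), and RRM2 like GINS1 (0.98), TPX2 (0.98) and CDCA2 (0.98). TYMS was most like KIF11, BIRC5 and PCNA (0.98 each), TK1 like GINS2, DTL and NCAPH (0.98 each), and DUT like AURKB, NCAPH and STIL (0.98 each). GINS1 and GINS2 belong to the replicative helicase, PCNA is the sliding clamp of DNA polymerase, and KIF11, BIRC5, TPX2 and AURKB act in mitosis.

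CTPS1 was most like EIF2S1 (0.96), CSTF2 (0.96) and PITHD1 (0.95), and DCK like ETFA (0.97), BAG4 (0.96) and NFE2L2 (0.96). SAMHD1 had no gene as close, with 0.80 for ACAA1, CXADR and SOS1. Among RRM1, RRM2, TYMS, TK1 and DUT the 10 pairwise r ran from 0.90 to 0.97, and those of SAMHD1 with the other 7 genes from -0.66 to -0.42.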

How the data were processed

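RNA of the cultures was measured on Affymetrix arrays with 54675 probe sets. The deposited values are linear intensities (5.79 to 31846), made with GCRMA per the submitters' processing notes, version not given in the sources used here, with 0 identical array pairs. They were taken to log2 with no pseudocount and no further scaling. Of the probe sets, 41097 name 1 gene, 1801 several and 11777 none; 19735 of 19775 symbols matched RefSeq. Each gene was read from its brightest probe set and tested where log2 was at least 4 on 3 arrays (18842 to 18935 genes per line). limma 3.58.1 in R 4.3.3 was fitted per line (27 arrays) or over the arrays of all lines for contrasts between lines, with Benjamini-Hochberg adjustment and a threshold of 0.05, over 48 contrasts; a 2-sided exact permutation test of 3 against 3 cannot go below 0.1. The pipeline was tested on simulated data: for WSU-DLCL2, 10xLCC, day 6, over 18784 genes, it recovered 70.7% of 99 genes with a log2 change of 0.5 and 99% of 100 with a change of 1. The number of arrays limits the precision. Named are the 8 genes, RRM2B, DTYMK, DCTPP1, the 3 genes per neighbour list with the largest mean change of 1 direction in the Y641 lines, and the 3 genes most like each enzyme; exceptions are stated, and 1 named gene is not reported here. The genes, lists and alternatives were chosen with earlier results of these data known.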

Additional observations from a re-analysis of the deposited data

Results flagged for a closer look

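The results below stood out because the effect of 10xLCC differed between days or between lines by a test of the difference itself in limma, adjusted over all genes. All values are differences of log2 changes.

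The effect at day 6 minus that at day 2 in WSU-DLCL2 was -0.84 for RRM1, -1.29 for RRM2, -0.55 for TYMS, -0.84 for TK1 and -0.47 for DUT. In SU-DHL6 it was -0.71 for RRM1, -1.23 for RRM2, -0.65 for TYMS, -0.76 for TK1, -0.36 for DUT, -0.73 for CTPS1 and -1.01 for DCK. In Karpas422 it was -1.41 for RRM1, -1.99 for RRM2, -1.74 for TYMS, -1.61 for TK1, -0.65 for DUT and -0.71 for CTPS1. Negative values mean a stronger fall at day 6. The beta-actin ratio rose at day 6 in SU-DHL6 and Karpas422, and its part in these values was not tested beyond the covariate fits given with the results.

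The effect in Pfeiffer minus the mean effect of the 3 Y641 lines at day 4 was 0.73 for RRM1, 0.89 for RRM2, 0.75 for TYMS, 0.80 for TK1, 0.39 for DUT and -0.64 for SAMHD1, and at day 6 it was 1.01 for RRM1, 1.69 for RRM2, 1.22 for TYMS, 1.11 for TK1, 0.42 for DUT and 0.75 for CTPS1. The effect in SU-DHL6 minus that in WSU-DLCL2 at day 4 was 0.94 for RRM1, 1.49 for RRM2, 1.57 for TYMS, 1.28 for TK1, 0.64 for DUT and -1.01 for SAMHD1, and at day 6 it was 0.50 for RRM1, 0.57 for RRM2, 0.69 for TYMS, 0.66 for TK1, 0.31 for DUT and -0.68 for DCK. The effect in Karpas422 minus the mean effect of WSU-DLCL2 and SU-DHL6 at day 4 was 0.45 for RRM2 and 0.49 for DCK, and at day 6 it was -0.64 for RRM1, -0.77 for RRM2, -0.94 for TYMS, -0.84 for TK1 and -0.26 for DUT. Doses differ between lines, so line and dose cannot be told apart.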

How the results depend on the processing

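Each count of the 8 genes and each change was recomputed under every alternative, 35 counts in all. The counts of falls at 10xLCC stayed within 1.5 times of the reported one under all of them in WSU-DLCL2 on each day and in Karpas422 at days 4 and 6. With the replicate block 34 of 35 counts stayed within 1.5 times of the reported one, and 383 of 384 single changes kept their side of the threshold. The replicate block left 1 of 2 calls in WSU-DLCL2, DMSO, day 6 against day 2, where the adjusted p of RRM2 was 0.05. The main fits did not treat the letters A, B and C as pairs. In 0 of 24 comparisons were all 3 correlations of same-letter arrays over 0.1, but with 3 arrays a group this check cannot exclude pairing.

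Signs turned in 4 values that were called in the main fit, in the alternative or in both. Turned signs of values called in neither were not counted. With probe sets averaged per gene these were SAMHD1 in Karpas422, 10xLCC, day 6 (-0.017), RRM1 in SU-DHL6 minus WSU-DLCL2 at day 6 (-0.0044) and DUT in DMSO, SU-DHL6 minus Karpas422 (0.34), and with the beta-actin covariate TYMS in Karpas422, DMSO, day 6 minus day 2 (0.86). With the covariate SU-DHL6 counts became 2 in place of 7 (10xLCC, day 6), 0 in place of 7 (10xLCC against LCC) and 1 in place of 7 (day 6 minus day 2), and the Karpas422 DMSO count 2 in place of 5. In these SU-DHL6 comparisons, in the same order, 551, 176 and 252 of 18895 genes fell with the covariate. With the contrast's groups fitted alone, WSU-DLCL2 10xLCC against LCC gave 1 in place of 5. Centring on bright genes gave 1 in place of 2 (WSU-DLCL2, DMSO), 1 in place of 0 (SU-DHL6, DMSO) and 2 in place of 0 (Pfeiffer, 10xLCC, day 4), which was 1 without the 4 arrays left out together. Over all genes, centring gave 1213 rises and 1714 falls of 18949, 438 and 463 of 18971, and in Pfeiffer 252 falls of 18977. Without the 4 arrays 272 of 18884 genes fell in Pfeiffer at 10xLCC, day 4. Falls at LCC over 3 days in SU-DHL6 were 5 in place of 3 with the mean of probe sets, centring, trended and robust variances, or without the 4 arrays left out together. Falls in Karpas422 at 10xLCC, day 2, were 0, but 2 with the filter at log2 6, 2 with log2(value + 16), 2 with the covariate, 2 without the 4 arrays left out together, 1 with the mean of probe sets, 1 with trended and robust variances and 3 with the groups alone. In the same order, 445 of 14198, 455 of 19775, 582 of 18873 and 515 of 18850 genes fell. With the mean of probe sets, trended and robust variances and the groups alone these were 499 of 18679, 410 of 18873 and 866 of 18481. Karpas422 against the other 2 lines at day 4 gave 2, but 4 with the filter at log2 6, 6 with centring, 5 with the covariate and 5 without the 4 arrays left out together. With the filter 1155 of 15489 genes were higher and 2218 lower. With centring these were 2002 and 1905 of 19390, and with the covariate 1238 and 2387 of 19224. Without the 4 arrays they were 1635 and 3082 of 19155.

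Leaving out replicate A, B or C gave 2 to 4 calls in WSU-DLCL2 10xLCC against LCC, 0 to 0 in WSU-DLCL2 DMSO, 1 to 4 falls in SU-DHL6 10xLCC at day 4, 1 to 4 in SU-DHL6 LCC, 4 to 6 in Karpas422 LCC and 2 to 5 calls in Karpas422 DMSO. It gave 1 to 3 for Karpas422 against the other 2 lines at day 4 and 3 to 5 at day 6, and 2 to 6 for SU-DHL6 minus WSU-DLCL2 at day 6. Each such fit holds 2 arrays a group. The cause of these moves was not tested.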
